A study of Mus musculus with 6 samples.

Results

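Transcripts of skeletal muscle fibre isoforms were followed in RNA-Seq libraries of mouse sciatic nerve. The genes were chosen by name, as 10 of the 24015 gene symbols in the count tables, and cover adult fibres of any type (Acta1 and Ckm), adult fast fibres (Myh1, Myh2, Myh4, Tnnt3 and Atp2a1), slow fibres (Tnnt1) and developing fibres (Myh3 and Myh8). All 10 symbols were found.

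Skeletal muscle fibres are built from sarcomeres, in which myosin heavy chains of the thick filament pull on actin of the thin filament after calcium binds troponin. Fibre types differ in the gene that supplies each part, so that fast fibres use Myh4, Myh1 or Myh2 and slow fibres use Myh7, while Myh3 and Myh8 are the embryonic and perinatal heavy chains that adult isoforms replace after birth. Sciatic nerve runs between muscles, and its own cells, which are Schwann cells, fibroblasts, perineurial, endothelial and immune cells, are not known for these sarcomere isoforms.

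Libraries were made from 3 control and 3 Rnf40 cko samples of sciatic nerve at postnatal day 14, to ask how loss of the ubiquitin ligase Rnf40 from Schwann cells alters gene expression. Control mice carried floxed alleles (Rnf40 fl/fl) and no Cre. Rnf40 cko mice carried the same floxed alleles and Dhh::Cre, a transgene whose promoter drives Cre in the Schwann cell lineage, so that other cells of the nerve keep Rnf40. Both genotypes are labelled as a mixed 129SvJ/C57Bl/6J background, whereas the methods name C3H in place of 129SvJ. Each library came from a pool of 3 nerves, and whether a mouse gave nerves to more than 1 pool was not given in the sources used here, so that p-values measure the spread among these pools. Library totals were 1317167, 1992622 and 2468765 counts for control replicates 1, 2 and 3, and 2184268, 1459387 and 2186710 counts for Rnf40 cko replicates 1, 2 and 3. A single count therefore stood for 0.405 to 0.759 CPM, which is each count scaled to a common library total. Rnf40 itself was at 62.3, 58.2 and 66.8 CPM in control and at 49.9, 51.4 and 54.0 CPM in Rnf40 cko replicates 1, 2 and 3. Every Rnf40 cko library was below every control library, with a log2 fold change of -0.54 (SE 0.14, adjusted p = 0.00243 by edgeR's quasi-likelihood test), and -0.27 with an adjusted p of 0.116 (range over the settings tried 0.00235 to 0.116) after scaling by total counts. Schwann cell genes mark the tissue, as Pmp22 of compact myelin reached 40844 to 43921 CPM in control and 10871 to 12123 CPM in Rnf40 cko libraries.

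The 5 myosin genes lie in a row on the plus strand of chromosome 11, in the order Myh3 (chr11:66891802-66915793), Myh2 (chr11:66984529-67011019), Myh1 (chr11:67013554-67038078), Myh4 (chr11:67051314-67073948) and Myh8 (chr11:67090626-67122136) in the GENCODE annotation of mm9. They are close copies of each other. Over their coding sequences, Myh4 was 90.1% identical to Myh1, 88.2% to Myh2, 87.9% to Myh8 and 80.3% to Myh3. The stretch of 60 coding bases that varied most among the 5 genes had 40 positions at which the genes differ. It is shown because reads from it tell the isoforms apart, with capitals at bases that differ from Myh4 in the alignment.
Myh4: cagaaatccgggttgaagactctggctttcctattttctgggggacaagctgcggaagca
Myh1: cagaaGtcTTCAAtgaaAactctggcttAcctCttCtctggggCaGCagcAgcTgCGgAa
Myh2: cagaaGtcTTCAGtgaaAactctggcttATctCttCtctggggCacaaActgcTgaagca
Myh8: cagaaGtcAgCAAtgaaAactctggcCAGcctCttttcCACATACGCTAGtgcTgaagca
Myh3: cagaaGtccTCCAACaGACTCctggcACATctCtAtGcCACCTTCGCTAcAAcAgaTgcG
The stretch of 60 coding bases that varied least had 1 variable position, and it is shown because reads from it do not separate Myh4, Myh1, Myh2 and Myh8, which are identical there.
Myh4: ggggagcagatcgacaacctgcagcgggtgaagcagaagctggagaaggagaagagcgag
Myh3: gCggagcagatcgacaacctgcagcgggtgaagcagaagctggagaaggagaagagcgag
Of all 50-base stretches in the annotated coding transcript, 18.9% of those in Myh4, 26.7% in Myh1, 26.9% in Myh2, 21.4% in Myh8 and 4.81% in Myh3 were also found in a transcript of another gene. Only uniquely mapped reads had been counted, so that these counts rest mainly on the remaining stretches, and how far reads were exchanged between close copies was not tested. Read length was not given in the sources used here.

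The other members are spread over chromosomes 7 and 8. Acta1, skeletal alpha-actin (chr8:126415669-126418651, minus strand), shared 2.0% of its 50-base stretches with another gene, and Atp2a1, the fast calcium pump of the sarcoplasmic reticulum (chr7:133589372-133606622, minus strand), 0.117%. The troponin T genes Tnnt3 (chr7:149684741-149701914, plus strand) and Tnnt1 (chr7:4456172-4467984, minus strand) shared 0. Ckm, muscle creatine kinase (chr7:19996443-20006932, plus strand), shared 22.8%, all with the overlapping gene A930016O22Rik, which had 0 to 4 counts per library.

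Myh4, the heavy chain of the fastest fibres, had the highest mean CPM of the 10 genes, at 1299, 832 and 636 CPM in control replicates 1, 2 and 3 and at 26.6, 31.5 and 674 CPM in Rnf40 cko replicates 1, 2 and 3. All control libraries and Rnf40 cko replicate 3 were high and Rnf40 cko replicates 1 and 2 were low. In CPM the groups overlapped because of Rnf40 cko replicate 3. With the TMM scaling used for the tests, which corrects library totals for differences in composition, that library was at 605 and the lowest control at 696, so that all Rnf40 cko libraries lay below the controls. Its values were 922 ± 341 CPM in control and 244 ± 372 CPM in Rnf40 cko nerves (mean ± SD, n = 3 each). Acta1 followed, with 858, 648 and 503 CPM in control and 20.1, 80.2 and 961 CPM in Rnf40 cko replicates 1, 2 and 3, or 670 ± 178 and 354 ± 527 CPM (SD, n = 3 each). The same 2 libraries were low in this thin filament gene. Rnf40 cko replicate 3 exceeded every control library in CPM but not after TMM scaling, where it was at 863 and control replicate 1 at 924.

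Atp2a1, which returns calcium to its store after contraction, was at 547, 452 and 308 CPM in control and at 9.61, 29.5 and 424 CPM in Rnf40 cko replicates 1, 2 and 3. Ckm, which rebuilds ATP in the working fibre, was at 398, 303 and 211 CPM in control and at 11, 19.9 and 298 CPM in Rnf40 cko libraries in the same order. Tnnt3, the fast troponin T, was at 203, 150 and 116 CPM in control and at 5.95, 18.5 and 216 CPM in Rnf40 cko libraries. In these 3 genes Rnf40 cko replicate 1 was the lowest library and replicate 2 the next, whereas replicate 3 lay within the range of the controls for Atp2a1 and Ckm on both scales. For Tnnt3 it lay above that range in CPM and within it after TMM scaling (194, with 219 in control replicate 1). Among controls the highest value of each of these genes, like those of Myh4 and Acta1, was that of replicate 1, the control library with the fewest counts.

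Myh1, the heavy chain of intermediate fast fibres, was at 69.1, 55.7 and 46.2 CPM in control and at 0.916, 10.3 and 179 CPM in Rnf40 cko replicates 1, 2 and 3. Myh2, the heavy chain of the slowest of the adult fast fibres, was at 3.80, 33.6 and 10.9 CPM in control and at 1.83, 20.6 and 161 CPM in Rnf40 cko libraries in the same order. Unlike the genes above, Myh2 was not uniformly low in Rnf40 cko replicate 2, which was above control replicates 1 and 3, and it was already low in control replicate 1, on 5 counts. Rnf40 cko replicate 3 had the highest value of both genes, at 3.15 times the control mean for Myh1 and 10 times for Myh2, compared with 0.730 times for Myh4.

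Among the developmental chains, Myh8 was at 25.1, 9.54 and 8.91 CPM in control and at 0, 2.06 and 32.0 CPM in Rnf40 cko replicates 1, 2 and 3. The count of 0 in Rnf40 cko replicate 1 allows up to 3 counts, or 1.37 CPM, which is still below each control value. Myh3 was near the detection limit in 5 of 6 libraries, with 1, 2 and 0 counts in control and 0 and 0 counts in Rnf40 cko replicates 1 and 2, but had 24 counts (11 CPM) in Rnf40 cko replicate 3. Tnnt1, the slow troponin T, had 1, 7 and 2 counts in control and 1, 5 and 25 counts in Rnf40 cko replicates 1, 2 and 3, the last being 11.4 CPM. For Myh3 and Tnnt1 the depth did not allow an order among the libraries other than Rnf40 cko replicate 3.

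**Figure D1:**
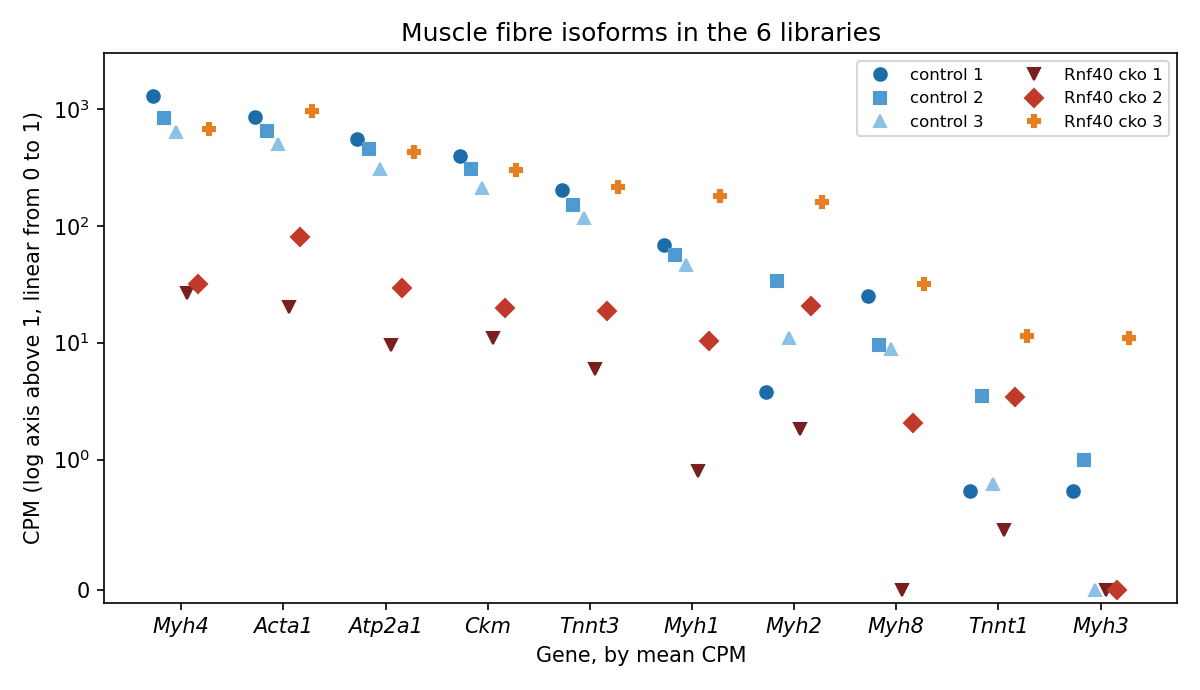
CPM of the 10 muscle fibre isoform genes in each of the 6 libraries, on an axis that is logarithmic above 1 and linear from 0 to 1, with genes ordered by mean CPM and 1 symbol per library. For Myh4 the libraries Rnf40 cko 1 and 2 sit at 26.6 and 31.5 CPM and the other 4 between 636 and 1299 CPM.

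Levels of different genes were compared as CPM per kb of exon. In control nerves the order was Acta1 (463 ± 123), Ckm (215 ± 66.1), Myh4 (153 ± 56.4), Atp2a1 (125 ± 34.6), Tnnt3 (116 ± 32.9), Myh1 (8.97 ± 1.81), Myh2 (2.26 ± 2.18), Myh8 (1.23 ± 0.777), Tnnt1 (0.775 ± 0.721) and Myh3 (0.0956 ± 0.0851 CPM per kb, SD, n = 3 each). Across libraries, the means of Ckm and Myh4, of Myh4, Atp2a1 and Tnnt3, and of Myh2, Myh8 and Tnnt1 lay within their spread. Within each control library, however, the order from Acta1 through Ckm, Myh4, Atp2a1 and Tnnt3 to Myh1 was the same. The order depended on the length used. Myh8 and Tnnt1 have annotated exons far longer in sum (11772 and 2185 bases) than their coding transcript (6149 and 1059 bases), so that their place beside Myh2 is not settled. Tnnt3 was below Atp2a1 in every control library per exon length (86.1 and 88.5 CPM per kb in control replicate 3) and above it in every control library per length of the annotated transcript (107 and 88.7), a length chosen after seeing the data, by which it also passed Myh4 in control replicates 2 and 3. Myh4 exceeded Myh1, the next heavy chain, in every control library, with 215 against 10.9, 138 against 8.77 and 105 against 7.27 CPM per kb in replicates 1, 2 and 3.

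Summed over the 10 genes, control replicates 1, 2 and 3 held 4485, 4957 and 4545 counts and Rnf40 cko replicates 1, 2 and 3 held 167, 315 and 6490 counts. As a share of all gene counts this was 0.341% (95% exact Clopper-Pearson interval 0.331 to 0.351), 0.249% (0.242 to 0.256) and 0.184% (0.179 to 0.190) in control replicates 1, 2 and 3. Rnf40 cko replicates 1, 2 and 3 gave 0.00765% (0.00653 to 0.00890), 0.0216% (0.0193 to 0.0241) and 0.297% (0.290 to 0.304). These intervals cover counting error only, and the 6 of them did not overlap, so that the libraries of 1 genotype differed from each other by more than counting error. The highest control library exceeded the lowest 1.85-fold, and the highest Rnf40 cko library exceeded the lowest 38.8-fold.

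The mean of the summed values was 2578 ± 786 CPM in control and 1087 ± 1631 CPM in Rnf40 cko nerves (SD, n = 3 each), a ratio of 0.422. A two-sided exact permutation test gave p = 0.3, where 0.1 is the smallest p that 3 against 3 libraries allow. The ratio was 0.0567 when Rnf40 cko replicate 3 was left out and 0.618 when Rnf40 cko replicate 1 was left out, the lowest and highest values when each library was omitted in turn. In whole nerve RNA, fewer cells of a type in the pool and less RNA per cell cannot be told apart, and neither can differences between dissections and between mice, as each pool is 1 library.

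**Figure D2:**
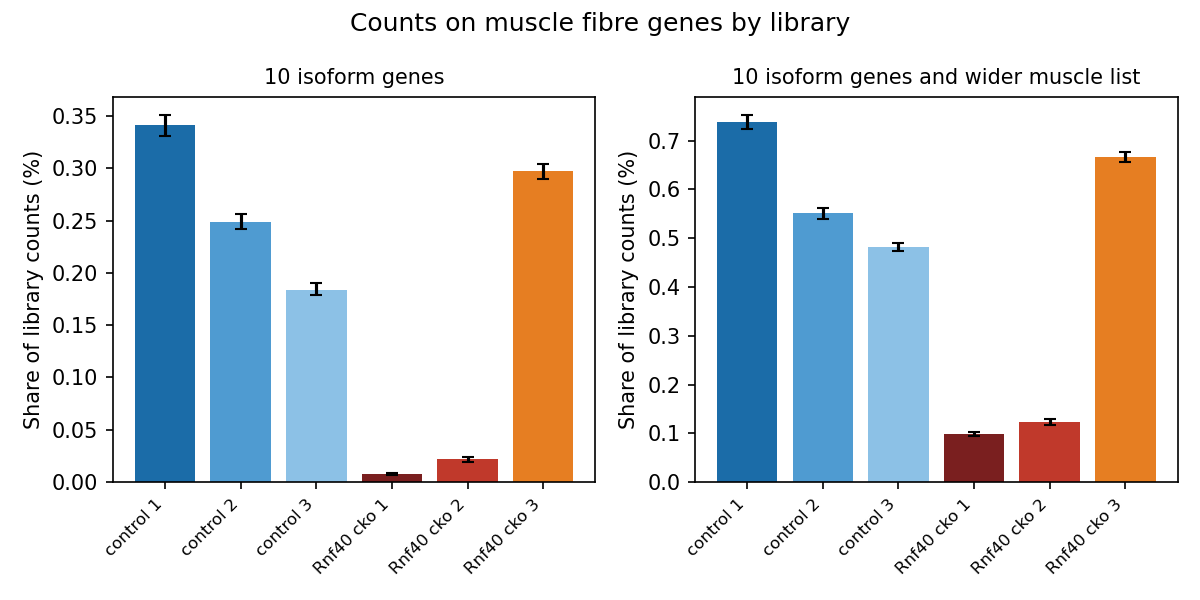
Share of each library's gene counts, in percent, that fell on the 10 isoform genes (left) and on these together with the wider muscle list (right), with bars of 95% exact binomial intervals. The left panel runs from 0.00765% in Rnf40 cko 1 to 0.341% in control 1, with Rnf40 cko 3 at 0.297%.

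Genotypes were compared with edgeR's quasi-likelihood test over the 11371 genes with enough counts for it. A call required an adjusted p no higher than 0.05, a log2 fold change of 0.8 or more in either direction, and a mean scaled count no lower than 20. Of the 10 isoform genes, 8 passed edgeR's filter on counts and 0 were called, against 8.64% of all genes tested (4.99% lower and 3.65% higher in Rnf40 cko nerves). Of the 8, 0 had an unadjusted p under 0.05, and DESeq2 also called 0. The split of calls over all genes depended on scaling, with 567 lower and 415 higher genes after TMM and 262 lower and 1002 higher genes after total-count scaling, which moved the median log2 fold change of all genes by 0.27. Log2 fold changes of the isoform genes were negative for 7 and positive for 1 of those tested, with a median of -1.16, beside -0.002 over all genes tested. Myh4 had the most negative value, -2.16 (SE 1.38, adjusted p = 0.33), and Acta1 was at -1.18 (SE 1.39, adjusted p = 0.597 by the same edgeR test). Myh2 had the positive value, 1.62 (SE 1.62, adjusted p = 0.53 by edgeR), and Myh1 lay at -0.02 (SE 1.41), or 0.26 after total-count scaling. For Myh3 and Tnnt1, which did not pass the filter, the fit without a filter gave 2.53 (SE 0.97, adjusted p = 0.0512) and 1.3 (SE 0.59, adjusted p = 0.101 by edgeR), on the few counts given above.

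Omitting a library changed the calls of the isoform genes in 1 of 6 cases. Without Rnf40 cko replicate 3, 6 of the 8 tested isoform genes were called lower, against 6.06% of all genes tested in that fit (697 of 11499), and the median of the 8 was -4.12. Log2 fold changes were then -5.23 for Myh4 (SE 0.56, adjusted p = 0.00842, range over all settings 0.00842 to 0.52), -4.83 for Atp2a1, -4.58 for Ckm, -4.10 for Acta1, -4.01 for Tnnt3 and -3.78 for Myh1, all by the same edgeR test. Myh8, at -4.13 (adjusted p = 7e-05, range 7e-05 to 0.999), passed the limits on p and fold change but had a mean scaled count of 17.7. Myh2 was not called at -1.05 (SE 1.42, adjusted p = 0.651, range 0.333 to 0.727), and its sign was the opposite of that with all libraries. In each of the 5 other fits with a library left out, 0 isoform genes were called. Whether Rnf40 cko replicate 3 or the other Rnf40 cko pools stand for the genotype cannot be told apart with 3 pools.

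**Figure D3:**
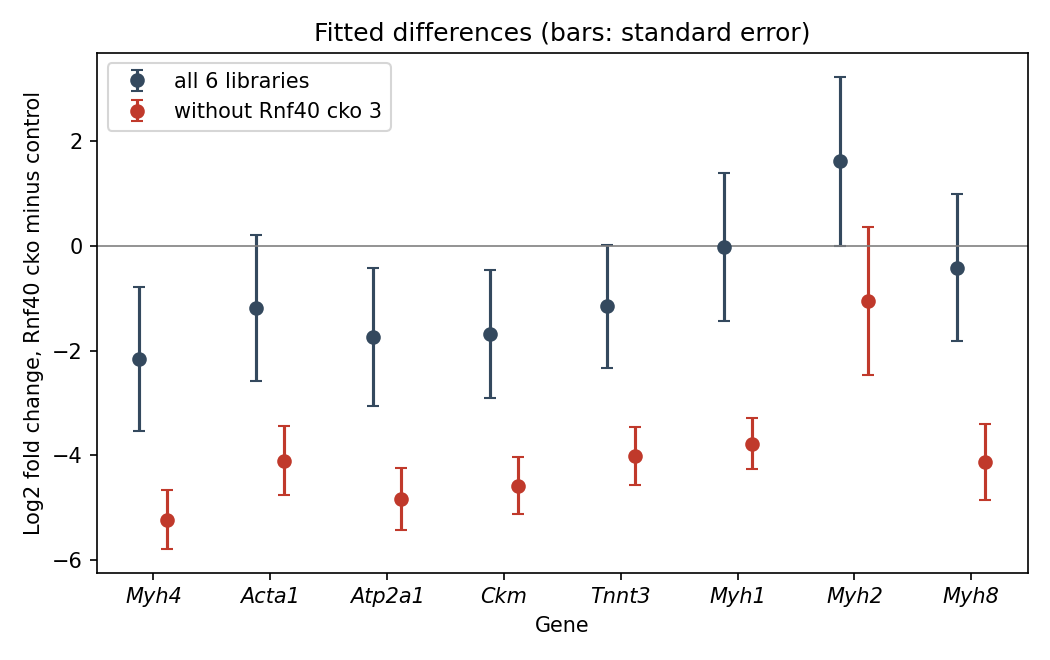
Log2 fold change (Rnf40 cko minus control) of the 8 isoform genes that passed the filter on low counts, with bars of 1 standard error, from all 6 libraries and without Rnf40 cko 3. Myh4 moves from -2.16 to -5.23, and the 6 genes called without that library lie between -5.23 and -3.78.

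The mixture of heavy chains also differed among pools. Together, Myh4, Myh1, Myh2, Myh8, Myh3 and the slow chain Myh7, which is not among the 10, held 1842, 1879 and 1756 counts in control and 64, 104 and 2455 counts in Rnf40 cko replicates 1, 2 and 3. Myh4 took 92.9% (95% exact interval 91.6 to 94.0), 88.2% (86.6 to 89.6) and 89.5% (87.9 to 90.9) of these counts in control replicates 1, 2 and 3. In Rnf40 cko replicates 1, 2 and 3 it took 90.6% (80.7 to 96.5), 44.2% (34.5 to 54.3) and 60% (58.0 to 61.9). Myh4 was thus a smaller part of the myosin counts in Rnf40 cko replicates 2 and 3 than in any control library, beyond counting error, while Rnf40 cko replicate 1 was not separable from the controls on its 64 counts.

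The Myh2 part of the counts was 0.271% (0.0882 to 0.632), 3.57% (2.77 to 4.51) and 1.54% (1.02 to 2.23) in control and 6.25% (1.73 to 15.2), 28.8% (20.4 to 38.6) and 14.4% (13.0 to 15.8) in Rnf40 cko replicates 1, 2 and 3. That of Myh7 was 0.0543%, 1.22% and 1.25% in control and 0, 9.62% (4.71 to 17.0) and 5.82% (4.93 to 6.83) in Rnf40 cko libraries in the same order, where 22.2% of the 50-base stretches of Myh7 are shared, all of them with the cardiac chain Myh6. Myh1 took 16.0% (14.5 to 17.5) in Rnf40 cko replicate 3 and at most 6.49% (5.38 to 7.75) in control libraries. Counted per exon length, Myh4 made up 94.0%, 89.7% and 90.9% of the 6 chains in control replicates 1, 2 and 3 and 91.7%, 48.8% and 63.9% in Rnf40 cko replicates 1, 2 and 3. With the number of 50-base stretches found in no other gene as the length, a setting chosen after seeing the data, the last 3 values were 89.8%, 42.4% and 58.4%.

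**Figure D4:**
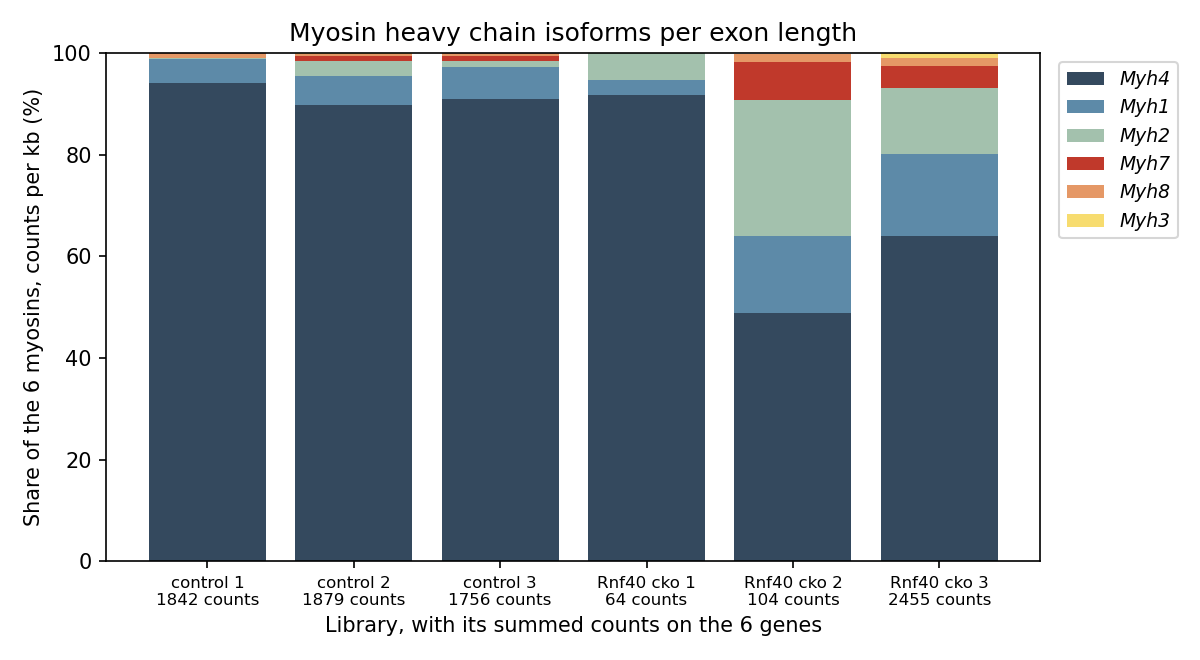
Share of 6 myosin heavy chain genes in each library, in percent of their summed counts per kb of exon, with the number of counts on the 6 genes under each bar. Myh4 makes up 89.7% to 94.0% in control, 91.7% in Rnf40 cko 1, 48.8% in Rnf40 cko 2 and 63.9% in Rnf40 cko 3.

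Other isoforms that differ between slow and fast fibres were compared as pairs from the wider muscle list, put together after their values had been seen and therefore not tested. The share of the slow or slow-enriched isoform was taken per exon length, and 9 pairs had annotated lengths. In Rnf40 cko replicate 3 this share was above every control library in 8 of 9 pairs, but only in 5 of 9 did its 95% interval lie above those of all controls. These intervals describe counting error and are no test of genotype. Myosin-binding protein C gave 47.8% Mybpc1 (95% exact interval for counting error 42.5 to 53.2) there and 11.8%, 15.6% and 16.7% in control replicates 1, 2 and 3. For alpha-actinin, Actn2 made up 44.9% (40.1 to 49.8) there and 15.8%, 16.7% and 19.2% in the controls. The calsarcin Myoz2, known from slow fibres and heart, made up 59.4% (48.3 to 70.3) there and 16.0%, 18.2% and 9.50% in the controls. Troponin T had 3.15% Tnnt1 (2.04 to 4.64) in Rnf40 cko replicate 3 and 0.229%, 1.43% (0.573 to 2.93) and 0.429% in the controls, so that it overlapped control replicate 2 within counting error, unlike the pairs just named.

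Shares in Rnf40 cko replicates 1 and 2 rested on few counts, as with 14 counts for troponin I in replicate 1, 13 of them on the slow Tnni1. They were above every control in 8 of 9 pairs in each of these libraries, but their intervals lay above those of all controls only in 5 pairs for replicate 1 and 6 pairs for replicate 2. In these libraries the fast partner was low while the slow partner was not always so. Casq2, for example, was at 58.5, 52.7 and 62.4 CPM in control and at 68.7, 58.9 and 68.6 CPM in Rnf40 cko replicates 1, 2 and 3, whereas Casq1 was at 128, 109 and 94.4 CPM in control and at 22, 36.3 and 111 CPM in Rnf40 cko libraries. Which cells of the pools hold each isoform was not tested.

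**Figure D5:**
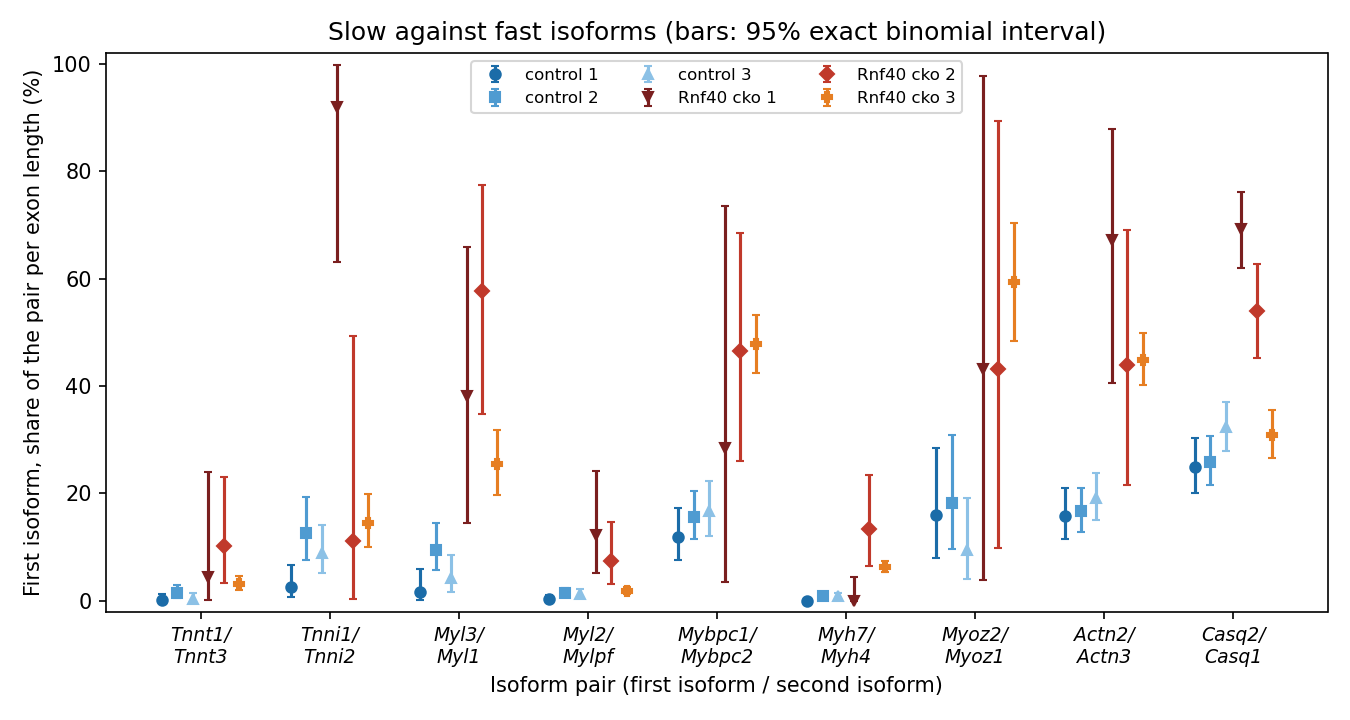
Share of the slow or slow-enriched isoform in 9 isoform pairs, in percent of the pair's counts per exon length, for each library, with bars of 95% exact binomial intervals. In Mybpc1/Mybpc2 the controls lie between 11.8% and 16.7% and Rnf40 cko 3 at 47.8%.

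A wider list of 66 further muscle fibre genes showed how far the pattern reached beyond the isoforms. Its summed level was 3980, 3019 and 2986 CPM in control and 907, 1011 and 3696 CPM in Rnf40 cko replicates 1, 2 and 3. Its most abundant gene was Car3, a carbonic anhydrase that adipocytes also express, at 833, 550 and 1046 CPM in control and 586, 506 and 589 CPM in Rnf40 cko libraries, followed by the giant sarcomere protein Ttn and the fast regulatory light chain Mylpf. Ttn was at 360, 284 and 208 CPM in control and at 12.4, 40.4 and 397 CPM in Rnf40 cko replicates 1, 2 and 3. As in the isoform genes, Rnf40 cko replicates 1 and 2 were the low libraries for Ttn, whereas in CPM the groups overlapped for Car3 without such a gap. With TMM scaling the log2 fold change of Car3 was -0.79 (adjusted p = 0.0921 by edgeR). Myh13, an extraocular heavy chain, had 0 counts in every library.

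Of these 66 genes 50 were tested, and 1 was called lower and 1 higher, against 4.99% and 3.65% of all genes tested. The median log2 fold change was -1.05, with 40 below and 10 above 0. Mybph, a myosin-binding protein, was called lower (18.2, 19.1 and 19.4 CPM in control, 4.12, 1.37 and 11 CPM in Rnf40 cko replicates 1, 2 and 3, log2 fold change -1.94, SE 0.36, adjusted p = 0.000145 by edgeR). Fbxo32, a ubiquitin ligase subunit of muscle wasting that other tissues express as well, was called higher (5.31, 18.6 and 15.8 CPM in control, 41.2, 58.2 and 41.2 CPM in Rnf40 cko libraries, log2 fold change 1.44, SE 0.26, adjusted p = 0.000214 by edgeR). In both genes the groups did not overlap in CPM. This was also so for Actc1, Pvalb, Myoz1 and Jsrp1, which were tested but not called, and for Myoz3 and Cox7a1, which were not tested. The share of such genes over all genes tested was not counted. Without Rnf40 cko replicate 3, 28 of 49 genes tested were called lower, against 6.06% of all genes tested in that fit, and 1 higher. Called lower were 7 of 10 thick filament, 4 of 7 thin filament, 7 of 12 Z-disc and titin, 6 of 11 calcium release and 4 of 9 energy genes, with medians of -2.76, -2.88, -3.30, -2.86 and -2.81.

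By list, summed levels in control replicates 1, 2 and 3 and then in Rnf40 cko replicates 1, 2 and 3 were 713, 606, 449, 38.0, 89.8 and 793 CPM for 12 thick filament genes, led by Mylpf. For 11 thin filament genes, led by the nebulin gene Neb, they were 574, 360, 306, 35.3, 64.4 and 478 CPM. For 14 Z-disc and titin genes they were 753, 628, 457, 34.8, 85.0 and 897 CPM. All of these lists were low in Rnf40 cko replicates 1 and 2. The 15 calcium release genes, led by the calcium buffer Pvalb, were at 689, 553, 477, 125, 147 and 572 CPM, and the 14 energy genes, led by Car3, at 1251, 873, 1296, 675, 625 and 956 CPM. The place of Rnf40 cko replicate 3 depended on scaling. After TMM scaling it was below the controls for calcium release (514, lowest control 522) and energy genes (859, lowest control 976). For thick filament and for Z-disc and titin genes it was above every control in CPM and among them after TMM scaling.

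The libraries in which each gene peaked were counted as well. Of the 8 isoform genes tested, TMM-scaled CPM was lowest in Rnf40 cko replicate 1 for 8, compared with 80.0% of the wider list and 15.5% of all genes tested. On this scale it was highest in control replicate 1 for 5, Acta1 and Tnnt3 among them, and in Rnf40 cko replicate 3 for 3, where the wider list had 50% and 32.0% and all genes tested 17.8% and 14.8%. Control replicate 1, the highest library for Myh4, Atp2a1 and Ckm, was lowest among controls for Myh2 and Myh7.

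The genes whose pattern over the 6 libraries was most like the summed level of the 10 isoforms were ranked among 11363 tested genes by Pearson's r of log2 TMM-scaled CPM. Mylpf came first (r = 0.9999), followed by Sh3bgr, Hfe2, Ttn, Neb, Tnni2, Casq1, Sypl2, Mybpc2 and Srl, the last with r = 0.9949, and 7 of these 10 were on the wider list, or 6 of 10 when ranked by CPM of total counts. Sh3bgr, which was not, was at 9.11, 7.03 and 6.48 CPM in control and at 0.458, 1.37 and 9.15 CPM in Rnf40 cko replicates 1, 2 and 3. Spearman's rho was between 0.829 and 1.000 for the 10 genes. These values describe libraries that fall far apart, since r over the 4 libraries left without the 2 farthest from the median, Rnf40 cko replicates 1 and 2, was between 0.635 for Srl and 0.998 for Mylpf. Of the first 100 genes, 30 were on the wider list, which had 50 genes in the ranking.

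The promoters of the isoform genes were searched for motifs. RefSeq promoter windows around the gene start (from GRCm38.p6) were given for 9 of the 10 genes, and each had 1 exact match in mm9. The promoters of Myh4 (chr11:67051064-67051363, plus strand) and Acta1 (chr8:126418626-126418925, minus strand) are shown because these genes had the highest mean CPM, with capitals for every CAGCTG or TATAAA on either strand.
Myh4: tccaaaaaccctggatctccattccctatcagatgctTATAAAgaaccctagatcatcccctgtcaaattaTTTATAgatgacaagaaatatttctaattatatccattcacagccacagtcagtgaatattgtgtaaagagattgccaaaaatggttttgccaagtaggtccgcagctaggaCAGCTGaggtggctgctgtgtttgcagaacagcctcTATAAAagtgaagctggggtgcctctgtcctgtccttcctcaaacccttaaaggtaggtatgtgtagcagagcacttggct
Acta1: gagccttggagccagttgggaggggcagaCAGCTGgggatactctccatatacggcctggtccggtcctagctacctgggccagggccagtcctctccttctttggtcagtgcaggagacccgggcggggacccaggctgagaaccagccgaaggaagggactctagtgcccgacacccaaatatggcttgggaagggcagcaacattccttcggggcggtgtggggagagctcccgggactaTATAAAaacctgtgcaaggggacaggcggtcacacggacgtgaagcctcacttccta
The E-box CAGCTG, searched on both strands, was in 4 of 9 promoters (Acta1, Ckm, Myh4 and Atp2a1) and in 16.3% of all 32851 promoters of this length. CACCTG, another E-box, was in 1 of 9 (Tnnt1) and in 20.2% of all. TATAAA was in 7 of 9 (Acta1, Tnnt1 and all 5 myosin genes) and in 13.6% of all. TAAAAATA, a form of the core of a MEF2 site, was in 0 of 9 and in 2.72% of all. Other forms of that site were not searched for, so that these promoters may hold some. Of the 44 wider list genes with a promoter, 47.7% held CAGCTG, 36.4% CACCTG, 18.2% TATAAA and 9.09% TAAAAATA. A match of letters is a description and not a binding site.

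Lists for other cells that a nerve pool can hold were set beside these values. Of 13 myogenic and junction genes, such as the satellite cell gene Pax7, 1 was tested and 0 were called. Their summed level was 23.5, 19.1 and 18.6 CPM in control and 9.61, 15.1 and 28.4 CPM in Rnf40 cko replicates 1, 2 and 3, led by the receptor subunit Chrnb1. Pax7 had 0 to 0.810 CPM, and Myf5, a factor of muscle precursors, had 0 counts in every library but control replicate 3 (1.62 CPM). Myod1, a factor of muscle differentiation, had 2, 4 and 3 counts in control and 0, 0 and 7 counts in Rnf40 cko replicates 1, 2 and 3, and Myog, another, had 2, 0 and 2 and then 0, 0 and 4 counts in the same order. Counts of 0 allow up to 1.37 and 2.06 CPM in Rnf40 cko replicates 1 and 2, with Myod1 at 1.22 to 2.01 CPM in control, so they do not set these libraries apart. Musk, of the same list, was at 1.52, 4.52 and 2.03 CPM in control and at 3.2, 5.48 and 4.12 CPM in Rnf40 cko libraries. Chrnb1 was likewise not low in Rnf40 cko replicates 1 and 2, at 5.04 and 8.22 CPM, with 4.56 to 6.08 CPM in control. Other receptor subunits differed from these, on few counts. Chrna1 had 7, 6 and 4 counts in control and 1, 0 and 5 counts in Rnf40 cko replicates 1, 2 and 3. Chrne had 5, 2 and 3 and then 0, 0 and 5 counts in the same order. Chrnd had 8 counts in Rnf40 cko replicate 3 and 0 in every other library. Of 8 cardiac genes 2 were tested and 0 called, with sums between 12.9 and 22.9 CPM, led by Tnnt2. Nppa and Myl7, which mark atrial heart muscle, had at most 2.06 CPM in any library, and the atrial light chain Myl4 at most 2.43 CPM, on 6 counts.

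The 10 smooth muscle genes, led by Smtn, summed to 1564, 1211 and 1364 CPM in control and to 1070, 1042 and 1314 CPM in Rnf40 cko replicates 1, 2 and 3, so that replicates 1 and 2 lay below every control and replicate 3 among them. After TMM scaling replicate 3 was below the controls as well, at 1181 with the lowest control at 1355. Of 9 tested, 2 passed the limit on adjusted p, beside 3598 of 11371 over all genes tested. Of these 9, 0 were called, or 1 lower without Rnf40 cko replicate 3, beside 6.06% of all genes tested in that fit. Schwann cell genes separated the genotypes, as 9 of these genes, led by Pmp22, summed to 72470, 77733 and 76122 CPM in control and to 26600, 25600 and 24996 CPM in Rnf40 cko libraries. Of the 9, 5 were called lower, or 4 without Rnf40 cko replicate 3, beside 4.99% and 6.06% of all genes tested. Egr2 went the other way, with 226, 237 and 206 CPM in control and 329, 299 and 404 CPM in Rnf40 cko libraries (log2 fold change 0.36, adjusted p = 0.00577 by edgeR). The other 8 genes had a log2 fold change below 0. In this list Rnf40 cko replicate 3 was close to the other Rnf40 cko libraries.

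Adipocyte genes, led by Fabp4, summed to 1764, 1316 and 2220 CPM in control and to 1528, 1454 and 1303 CPM in Rnf40 cko libraries. After TMM scaling all Rnf40 cko libraries were below the controls, at 1423, 1318 and 1171 with the lowest control at 1471. Past the limit on adjusted p were 5 of 10, and 2 were called lower, or 1 without Rnf40 cko replicate 3. Over all genes tested, 3598 of 11371 passed that limit and 4.99% were called lower. Endothelial genes, led by Cdh5, summed to 853, 746 and 876 CPM in control and to 650, 646 and 817 CPM in Rnf40 cko libraries, where in CPM replicates 1 and 2 lay below every control and replicate 3 among them. After TMM scaling all Rnf40 cko libraries lay below the controls, with 734 in replicate 3 and 834 in the lowest control. With this scaling all 10 had a log2 fold change below 0, as had 5703 of all 11371 genes tested, whereas in CPM Emcn averaged 34.36 in control and 35.05 in Rnf40 cko libraries. The limit on adjusted p was passed by 6 of the 10, beside 3598 of all genes tested. Called lower was 1, which rose to 5 of 10 without Rnf40 cko replicate 3, beside 6.06% of all genes tested in that fit. Fibroblast and perineurial genes, led by Col3a1, summed to 48042 to 53069 CPM in control and to 43040 to 43846 CPM in Rnf40 cko libraries. Of these, 9 of 10 were past the limit on adjusted p, beside 3598 of all 11371 genes tested, and 1 was called lower. It was Itgb4, with means of 421 CPM in control and 156 CPM in Rnf40 cko libraries (log2 fold change -1.69). Which cells of the nerve hold the Itgb4 transcripts was not tested. Some passes rest on TMM scaling, as Dcn passed that limit with means of 3445 CPM in control and 3451 CPM in Rnf40 cko libraries. Macrophage genes, led by Csf1r, summed to 391 to 433 CPM in control and to 345 to 359 CPM in Rnf40 cko libraries, with 7 of 8 past that limit, beside the same 3598 of 11371, and 1 called lower. Both of the latter lists had 1 gene called lower without Rnf40 cko replicate 3 as well. In none of these 4 lists were Rnf40 cko replicates 1 and 2 as far below the controls as in the isoform genes.

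Blood could be followed by few genes. Of 8 blood genes, 6 globin genes with near-identical copies had 0 counts in every library. As Gapdh, which every cell uses and which has many near-identical copies in the genome, had only 0 to 4 counts per library, 0 counts of such genes say little about blood. The others, led by Alas2, summed to 20.5, 16.6 and 17.4 CPM in control and to 6.41, 10.3 and 24.7 CPM in Rnf40 cko replicates 1, 2 and 3, which is again low in the first 2 of these. Alas2, the 1 blood gene tested, was not called with all libraries and was called lower without Rnf40 cko replicate 3, with a log2 fold change of -1.30. The 8 cartilage and bone genes, led by Col2a1, summed to 15.9, 19.1 and 16.6 CPM in control and to 33.0, 24.7 and 27.0 CPM in Rnf40 cko libraries, with Matn1 and Bglap at 0 in every library and 0 of 3 tested genes called. The part of any of these cells in the values of the isoform genes was not tested.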

How the data were processed

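RNA-Seq was performed on 6 pools of sciatic nerve. Per the methods, TopHat was used by the authors for alignment to mm9 and HTSeq for counting reads with a unique position; the deposited values are whole-number counts for each gene symbol, not normalized, and the submitters' processing notes also name Bowtie2 2.1.0 and mm10. Gene annotation and strand setting were not given in the sources used here, so overlapping genes are uncertain, and the kit named in the labels (NEB Next Ultra) differs from that in the methods. Genotypes were compared by edgeR 4.0.16 in R 4.3.3 (filterByExpr, TMM, robust quasi-likelihood fit, Benjamini-Hochberg adjustment over all genes tested), tested first on simulated data. DESeq2 1.42.0, other scalings and filters, a replicate block and omission of each library were tried as alternatives. Log2 CPM used a prior count of 2. Intervals are exact binomial (scipy 1.17.1). Coding sequences were aligned with MAFFT 7.526. Gene models were found for all 10 isoform genes in GENCODE vM1 (mm9), where 20763 of 24015 symbols occurred once. Named genes were the 10 isoforms, Rnf40 and the most abundant of each list. Muscle genes called or at 0 throughout and the 10 genes most alike were also named. Others were picked after their values were seen, such as slow and fast partners, Casq1, Casq2, Gapdh, Pax7, Myf5, Myod1, Myog, Musk, Nppa, Myl4, Myl7, Egr2, Emcn, Dcn and the bone genes at 0. Also picked in this way were Chrna1, Chrnd, Chrne, Itgb4 and the muscle genes named because their groups did not overlap. The isoforms, lists and comparisons were chosen with earlier results of these data known. A gene of the Schwann cell list is not reported here and was left out of that list.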

Additional observations from a re-analysis of the deposited data

How the results depend on the processing

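No isoform gene (0) was called with RLE or total-count scaling, by DESeq2, with either filter, a replicate block and an adjusted p alone, and 0 to 6 when each library was left out, 6 without Rnf40 cko replicate 3. Their median log2 fold change then ranged from -4.12 to -0.59, and the ratio of summed CPM from 0.0567 to 0.618, lowest without that library. Total-count scaling called 262 genes lower and 1002 higher, and an adjusted p alone 1841 and 1757; left-out libraries gave 548 to 697 lower and 371 to 469 higher. On the wider muscle list, genes called lower numbered 2 with DESeq2, 2 without a filter, 0 with at least 10 counts in every library and 1 to 28 without single libraries, and genes called higher 0 with at least 10 counts in every library, where Mybph and Fbxo32 are not tested. Signs reversed for Myh1 (0.26 after total-count scaling; -3.78 to 0.59 without single libraries), Myh2 (-1.05 to 2.66) and Myh8 (-4.13 to 0.24), none past the adjusted p limit in the reversed direction. With the length of the transcript, Myh4's share of myosins in Rnf40 cko replicate 3 was 60.4%. Tnnt3 was above Atp2a1 in every control library by transcript length or by the number of 50-base stretches found in no other gene, and below it by exon length. Apart from the construction of the filter, the cause was not tested.

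Replicate numbers did not pair libraries (correlations of -0.095, -0.015 and -0.062), and the block fit called 0 isoform genes, 565 genes lower and 408 higher, 1 wider list gene lower and 1 higher, with a median of -2.21. Low counts limit Myh3, Tnnt1 and the slow and fast pairs in Rnf40 cko replicates 1 and 2.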
